A study of Mus musculus with 6 samples.

Results

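The genes described here encode the glycosyltransferases of the Golgi that build the sugar chains of mucins and other glycoproteins. They were chosen by symbol (Fut, Galnt, Gcnt, B3gnt, B3galt, B4galt, B4galnt, C1galt, St3gal, St6gal, St6galnac and St8sia genes), which gave 57 of the 18448 genes in the deposited table. Of these, 55 encode an enzyme or its chaperone, and 2 (Galnt6os and St8sia3os) are non-coding genes on the opposite strand of the gene they are named for. After the filter on low counts 51 of the 57 were tested, among 14544 genes tested in all.

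Poly(A) RNA was sequenced from mouse jejunal organoids, which are epithelial cultures grown from the small intestine, in 6 libraries. The 3 4OHT libraries came from organoids given 0.5 µM 4-hydroxytamoxifen for 24 hours and the 3 DMSO libraries from organoids given the vehicle. Organoids of both groups were C57BL/6 and Villin-CreERT2; Hnf4aflox/flox, so controls carried the floxed alleles and the inducible Cre as well. Both groups were also grown with 200 ng/mL recombinant Wnt3A and collected at day 2 after splitting. The Cre is driven by the villin promoter, which is active in the intestinal epithelium. The labels give no control exposed to 4OHT without floxed alleles, so effects of 4OHT or of Cre activity and effects of Hnf4a loss cannot be told apart. They do not say whether replicates came from separate animals or organoid lines, and a p-value here reflects only how far these 6 libraries spread, possibly for technical reasons.

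Total counts per library ran from 34912396 to 40276242 in the 4OHT group and from 31537100 to 36102703 in the DMSO group. Hnf4a, the targeted nuclear receptor gene, had 436, 424 and 482 CPM (counts per 1000000) in 4OHT libraries, against 840, 846 and 1021 CPM in DMSO libraries. All 12 enterocyte markers were detected, with summed levels of 2850 to 4450 CPM in 4OHT libraries and 3930 to 7600 CPM in DMSO libraries. Fibroblast markers summed to 5.87 to 8.41 CPM and 5.17 to 9.42 CPM, and leukocyte markers to 4.21 to 5.51 CPM and 2.63 to 3.4 CPM, in 4OHT and DMSO libraries. In replicate 3, 9.88% of tested genes in 4OHT and 17.4% in DMSO lay more than 0.5 (log2) from the mean of the other libraries of the group.

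Mucin-type O-glycosylation starts when a GALNT enzyme attaches N-acetylgalactosamine (GalNAc) to serine or threonine. C1GALT1, which needs the chaperone encoded by C1galt1c1, then adds galactose to form the core 1 structure, and GCNT enzymes add a branch to it. B3GNT and B4GALT enzymes lengthen the chains with N-acetylglucosamine and galactose, and fucose, sialic acid or GalNAc caps their ends. In the intestine such glycans coat the secreted mucus gel and the apical surface of enterocytes, where they are bound and fed on by bacteria. Some of the enzymes act mainly elsewhere: FUT8 on the core of N-glycans, B4GALT7 and B3GALT6 on proteoglycan linkers, B4GALT5 and B4GALT6 on glycolipids, and B4GALNT1 on gangliosides.

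Levels can be compared between genes only per length, and TPM (transcript counts divided by exon length and scaled to a fixed total) is used for that. Over all 6 libraries 9 members averaged 100 TPM or more, 26 lay between 10 and 100, 10 between 1 and 10, and 12 under 1. The highest were the GalNAc-capping gene B4galnt2, which makes the Sda antigen, at 246 ± 8.28 TPM in 4OHT and 291 ± 45.9 TPM in DMSO (SD, n = 3 each), and the sialyltransferase gene St3gal4, at 210 ± 52.8 and 308 ± 140 TPM in 4OHT and DMSO libraries. B4galnt1, the GM2 and GD2 ganglioside synthase gene, followed at 192 ± 24.8 TPM in 4OHT and 234 ± 52.9 TPM in DMSO. For each of these 3 genes the groups overlapped. The 12 highest also held Galnt6, B3gnt3, Gcnt3, B4galt6, C1galt1c1, Galnt1, Galnt7, C1galt1 and Galnt3.

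The share of the highest gene in the summed TPM differed between families. Galnt6 led the initiating enzymes with 27.1% to 35.8% of their summed TPM per library. Gcnt3 led the core and branching enzymes with 33.3% to 42.5%, B3gnt3 the chain-extending enzymes with 26.6% to 33.3%, and St3gal4 the sialyltransferases with 54.6% to 77.4%. Fut8 held 51.4% to 71.3% in the fucosyltransferases, and B4galnt2 48.6% to 54.1% in the GalNAc-capping enzymes. The core 3 synthase gene B3gnt6, known for its role in mouse colon, was at 0.918 ± 0.158 TPM in 4OHT and 0.884 ± 0.0529 TPM in DMSO. Levels of Galnt2 (3.57 ± 0.203 TPM in 4OHT and 3.33 ± 0.0875 TPM in DMSO) and B3gnt2 (2.44 ± 0.334 TPM in 4OHT and 2.23 ± 0.283 TPM in DMSO) are uncertain, since 3854 of the 4282 exon bases of Galnt2 and 58.6% of those of B3gnt2 are shared with another annotated gene on the same strand.

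**Figure D1:**
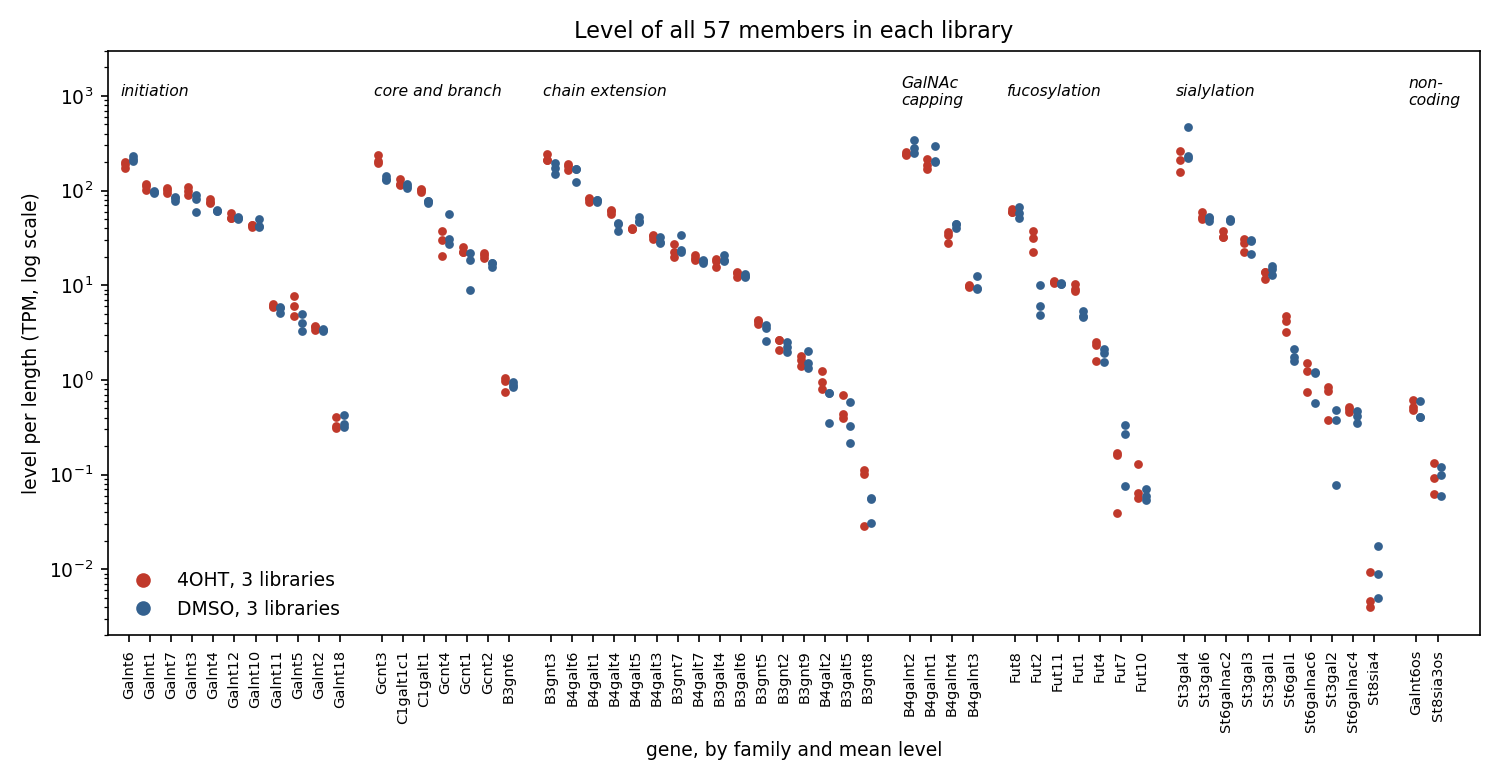
Level per length (TPM, log scale) of all 57 members, grouped by family and ordered by mean level, with 1 point per library (4OHT left in red, DMSO right in blue). Fut8 is the highest fucosyltransferase gene in every library, and the groups separate visibly for Fut2, Fut1 and St6gal1.

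Summed over all members, TPM was 2887, 2669 and 2947 in 4OHT libraries and 2643, 2627 and 3022 in DMSO libraries, so the groups overlapped. The core and branching enzymes together had 498, 475 and 554 TPM in 4OHT libraries, against 383, 386 and 416 TPM in DMSO libraries. For the fucosyltransferases the sums were 104, 115 and 124 TPM in 4OHT libraries, against 73.5, 82.3 and 94.3 TPM in DMSO libraries. Of these sums Fut2 alone was 22.2, 31.8 and 37.8 TPM in 4OHT libraries, against 4.86, 5.97 and 10.1 TPM in DMSO libraries. The chain-extending enzymes had 734, 676 and 684 TPM in 4OHT libraries, against 648, 617 and 567 TPM in DMSO libraries. For these 3 families every 4OHT library lay above every DMSO library, a pattern that 12.5% of all tested single genes had too. GalNAc-capping enzymes had sums that did not overlap either but lay lower after 4OHT, with 470, 471 and 499 TPM in 4OHT libraries, against 502, 539 and 693 TPM in DMSO libraries. The margin was small, at 499 against 502 TPM, and 10.1% of all tested single genes lay apart in that direction too. The initiating enzymes had overlapping sums of 729, 642 and 692 TPM in 4OHT libraries and 657, 629 and 644 TPM in DMSO libraries. Sialyltransferases also had overlapping sums of 351, 289 and 394 TPM in 4OHT libraries and 379, 372 and 607 TPM in DMSO libraries.

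In the comparison of 4OHT with DMSO 5 members rose and 1 fell at an adjusted p under 0.05 (edgeR quasi-likelihood test, Benjamini-Hochberg adjustment over all tested genes). Fut2, St6gal1, Fut1, B4galt4 and C1galt1 rose, and St6galnac2 fell. Together they were 11.8% of the 51 tested members, beside 0.908% of all tested genes. The 5 rises were 9.8% of the 51 tested members, where 0.701% of all tested genes rose, and the 1 fall was 1.96%, where 0.206% of all tested genes fell. With the replicate number as a block in the model, 10 members rose (19.6%, beside 3.99% of all genes) and 2 fell (3.92%, beside 3.0%), or 23.5% in all beside 6.99%. The members added by the block were Gcnt3, Galnt4, Gcnt2, B3gnt3 and Galnt7 among the rises and B4galt5 among the falls. The median log2 fold change of the tested members was 0.10, and 70.6% of them had a value above 0, beside 49.2% of all tested genes.

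Whether these calls passed depended on which libraries were in the fit, while the fold changes kept their direction and moved most for Fut2. Over the fits that leave out 1 library the log2 fold change ran from 1.88 to 2.5 for Fut2, from 0.83 to 0.96 for Fut1, from 1.0 to 1.26 for St6gal1, from 0.44 to 0.54 for B4galt4, from 0.34 to 0.4 for C1galt1 and from -0.64 to -0.52 for St6galnac2. Each of the 6 calls was kept without DMSO replicate 3 (adjusted p from 0.00874 to 0.0462), and 8 members were called then, 15.7% beside 2.29% of all genes. None of the 6 was kept without 4OHT replicate 1 (0.0917 to 0.198), 2 (0.0781 to 0.133) or 3 (0.0899 to 0.145), or without DMSO replicate 1 (0.0953 to 0.12) or 2 (0.108 to 0.174). In those 5 fits edgeR called 0 members, and 0.0606%, 0.135%, 0.0811%, 0.0404% and 0.027% of all genes. At an unadjusted p under 0.05 the same fits had 12, 16, 16, 17 and 13 members (23.5% to 32.7% of those tested), beside 10.1% to 15.1% of all genes. With all 6 libraries and no adjustment of p, 11 members were higher and 4 lower at the 0.05 level (21.6% and 7.84%, beside 8.65% and 6.35% of all genes). At an adjusted p under 0.05 DESeq2 called 8 higher and 3 lower. These were 14.0% and 5.26% of all 57 members, beside 2.57% and 1.41% of all 18448 genes, or 19.3% in all beside 3.98%. Without replicate 3 of both groups 8 members rose and 2 fell (15.7% and 3.92%, beside 2.59% and 1.51% of all genes, or 19.6% in all beside 4.1%), and all 6 genes of the comparison over all libraries were among them (adjusted p from 0.00413 to 0.0296).

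**Figure D2:**
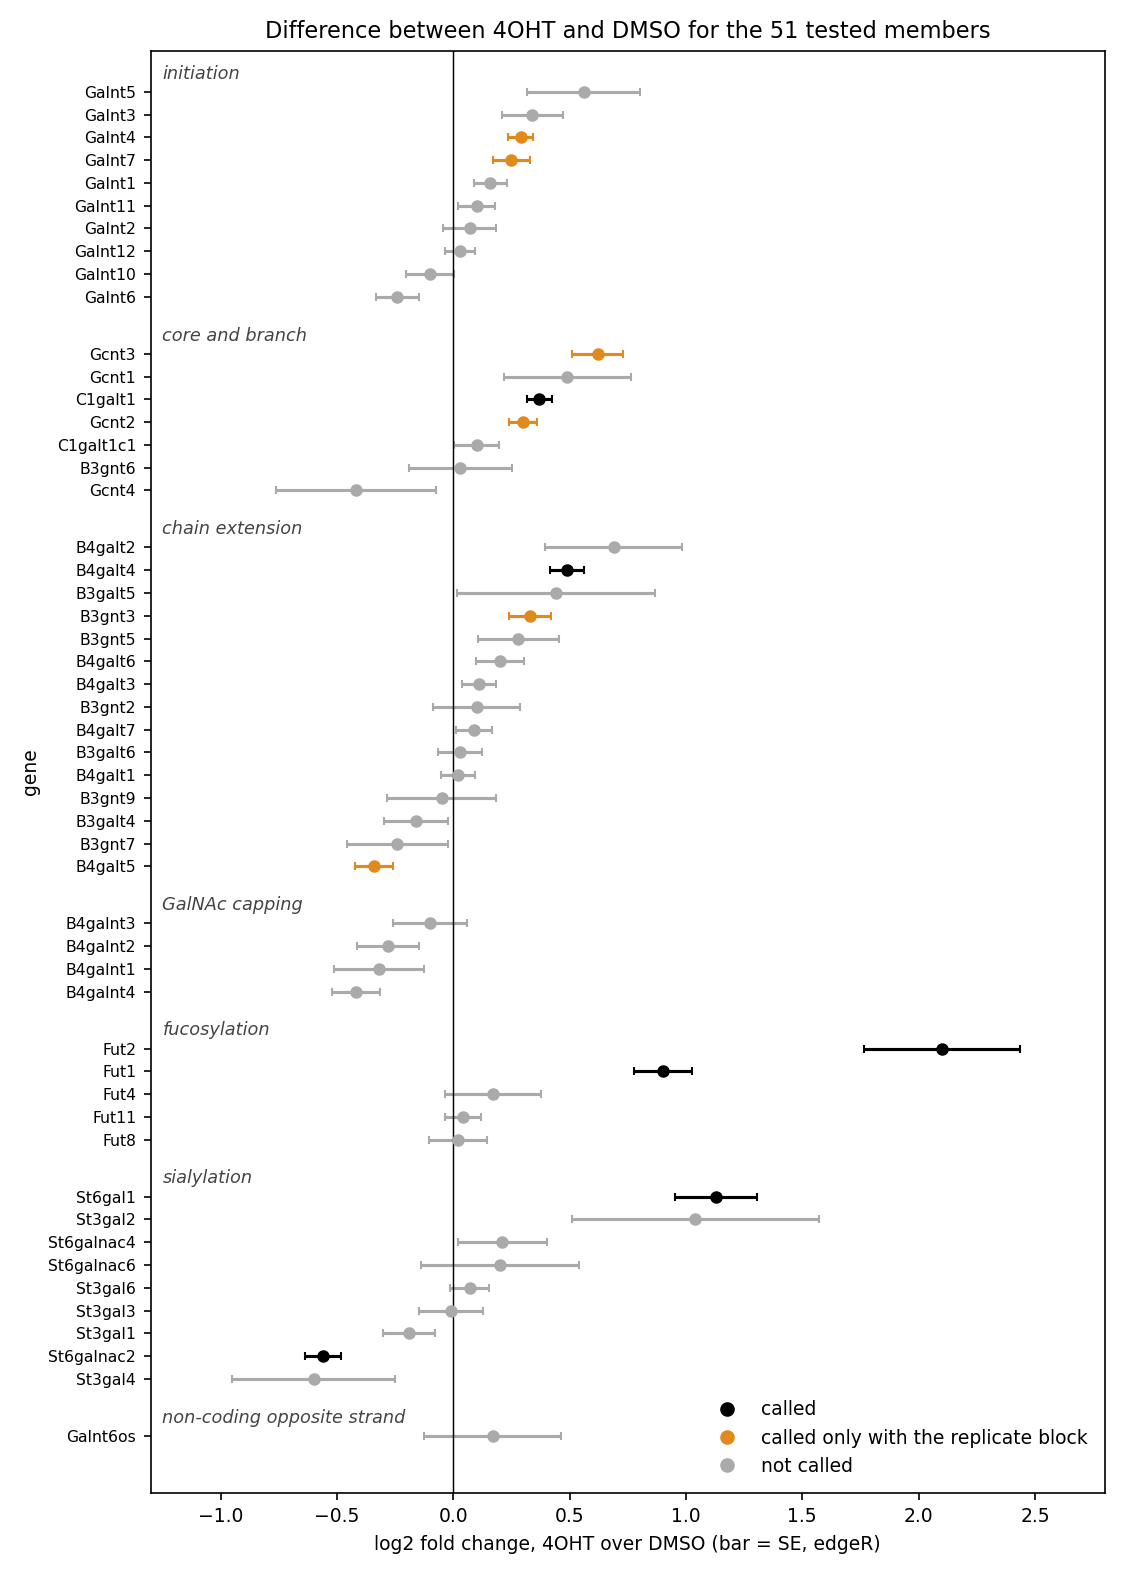
Log2 fold change of 4OHT over DMSO (x axis, bar = SE) for the 51 tested members, grouped by family. Black points had an adjusted p under 0.05, orange points only with the replicate block, and grey points in neither fit; Fut2 at 2.10 lies farthest from 0.

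Groups did not overlap for 13 members that were higher and 4 that were lower in 4OHT libraries, which is 25.5% and 7.84% of those tested. Over all tested genes the shares were 12.5% and 10.1%. The share of members with all DMSO libraries above all 4OHT libraries was thus not above the background. The 4 lower members were St6galnac2, B4galt5, B4galnt4 and Galnt6.

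Among the 10 tested genes of the initiating enzymes, 0 passed in edgeR without the block (at an unadjusted p under 0.05, 3 were higher and 1 lower), DESeq2 called Galnt4 higher, and 2 rose with the block. Galnt4, whose product prefers peptides that already carry GalNAc, had 125, 115 and 121 CPM in 4OHT libraries, against 96.2, 97.7 and 102 CPM in DMSO libraries. Its groups did not overlap and its replicates lay close together (log2 fold change 0.29, SE 0.0547, adjusted p = 0.0675, and 0.0283 with the block). Galnt4 shares 8.25% of its exon bases with Poc1b on the same strand. Galnt7, a second enzyme of the glycopeptide-preferring kind, had 169, 149 and 168 CPM in 4OHT libraries, against 137, 126 and 146 CPM in DMSO libraries. All 4OHT libraries were above all DMSO libraries by a small margin (0.25, SE 0.0786, adjusted p = 0.199, and 0.0315 with the block).

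Galnt6, the highest of the family, was at 231, 205 and 236 CPM in 4OHT libraries and 257, 241 and 293 CPM in DMSO libraries. The groups did not overlap, but the difference missed the threshold (-0.24, SE 0.0931, adjusted p = 0.302, and 0.0511 with the block). Galnt1, a broadly acting initiator, averaged 187 ± 14.2 and 167 ± 5.18 CPM (SD, n = 3 each) in 4OHT and DMSO libraries (0.16, adjusted p = 0.335). Galnt3 had 143, 121 and 135 CPM in 4OHT libraries and 121, 108 and 85.3 CPM in DMSO libraries (0.34, adjusted p = 0.286, and 0.21 on the log2 scale without DMSO replicate 3). The other 5 tested genes had log2 fold changes between -0.10 (Galnt10) and 0.56 (Galnt5), and Galnt18 had only 9 to 11 counts per library and was not tested.

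C1galt1, the core 1 synthase gene, rose to 190, 181 and 194 CPM in 4OHT libraries, against 146, 143 and 149 CPM in DMSO libraries. Replicates were tight in both groups, so a 1.29-fold difference was larger than their spread (log2 fold change 0.37, SE 0.0537, adjusted p = 0.0378 in edgeR). C1galt1 (ENSMUSG00000042460) lies at chr6:7844842-7875687 in GRCm38 on the plus strand. Its X-linked chaperone gene C1galt1c1 was at 50.6, 51.6 and 61.3 CPM in 4OHT libraries and 47.4, 49.8 and 55.6 CPM in DMSO libraries, which overlapped (0.10, adjusted p = 0.696).

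Gcnt3, a mucin-type branching enzyme gene that acts on core 1, core 3 and I-antigen precursors, had the largest difference of its family. It had 266, 255 and 319 CPM in 4OHT libraries, against 169, 174 and 203 CPM in DMSO libraries. Every 4OHT library was above every DMSO library, with the third replicate highest in both groups. The 1.54-fold difference missed the threshold in edgeR (0.62, SE 0.109, adjusted p = 0.0608). It passed with the block (adjusted p = 0.00581), with DESeq2 (0.000135), with library totals alone as scaling (0.0453), without DMSO replicate 3 (0.0244) and without replicate 3 of both groups (0.00509). Gcnt2, which makes the branched I antigen, had 44.4, 47.1 and 43.2 CPM in 4OHT libraries, against 37.3, 36.6 and 35.8 CPM in DMSO libraries. Its groups did not overlap (0.30, SE 0.0595, adjusted p = 0.0775 in edgeR, 0.0316 with the block and 0.018 with DESeq2), and up to 6.84% of its exon bases are shared with a gene on the opposite strand.

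The core 2 enzyme genes Gcnt1 and Gcnt4 gave opposite signs and passed in neither fit. Gcnt1 had 39.4, 39.7 and 45.5 CPM in 4OHT libraries and 39.1, 32.8 and 16.8 CPM in DMSO libraries (0.49, adjusted p = 0.462). Gcnt4 was at 46.6, 31.5 and 60.0 CPM in 4OHT libraries and 47.8, 42.9 and 94.0 CPM in DMSO libraries (-0.42, adjusted p = 0.625). For both genes DMSO replicate 3 lay far from the other DMSO libraries, low for Gcnt1 and high for Gcnt4.

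Of the 15 tested chain-extending genes 1 rose, and with the block 2 rose and 1 fell. B4galt4, a galactosyltransferase known to act on sulfated N-acetylglucosamine, rose to 59.3, 55.8 and 63.7 CPM in 4OHT libraries, against 43.4, 44.1 and 39.8 CPM in DMSO libraries. The groups were clearly apart (1.41-fold, log2 fold change 0.49, SE 0.073, adjusted p = 0.0406 in edgeR). B4galt4 (ENSMUSG00000022793) lies at chr16:38742264-38769049 on the plus strand.

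B3gnt3, which extends core 1 chains with N-acetylglucosamine, had 226, 197 and 202 CPM in 4OHT libraries, against 184, 163 and 151 CPM in DMSO libraries. All 4OHT libraries were above all DMSO libraries (0.33, SE 0.09, adjusted p = 0.155, and 0.0236 with the block). B4galt5, a lactosylceramide synthase gene, had 51.2, 51.2 and 54.3 CPM in 4OHT libraries, against 62.8, 61.8 and 73.6 CPM in DMSO libraries. The lowest DMSO library was above the highest 4OHT library (-0.34, SE 0.0802, adjusted p = 0.113 in edgeR, 0.0253 with the block and 0.0297 with DESeq2).

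B4galt6, a second lactosylceramide synthase gene, averaged 321 ± 15.6 CPM in 4OHT and 279 ± 37.1 CPM in DMSO (0.20, adjusted p = 0.424, and 0.09 on the log2 scale without DMSO replicate 3). B4galt1, the broadly used galactosyltransferase gene, was at 105 ± 7.12 and 104 ± 6.8 CPM in 4OHT and DMSO libraries (0.02, SE 0.0741, adjusted p = 0.938). Of the proteoglycan-linker genes, B4galt7 had a log2 fold change of 0.09 and B3galt6 one of 0.03. B4galt2 had 1.43, 1.88 and 1.26 CPM in 4OHT libraries and 1.11, 1.12 and 0.585 CPM in DMSO libraries (0.69, SE 0.294, adjusted p = 0.338), and 28.2% of its exon bases lie in Ccdc24 on the same strand. Of the remaining 7 tested genes, log2 fold changes ran from -0.24 (B3gnt7) to 0.44 (B3galt5), and B3gnt8 had 2 to 9 counts per library and was not tested.

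All 4 GalNAc-capping genes had negative log2 fold changes, and 0 passed in edgeR with or without the block (1 lower at an unadjusted p under 0.05), whereas DESeq2 called B4galnt4 lower (adjusted p = 0.0203). B4galnt4, which adds GalNAc to chain ends to form LacdiNAc, had 39.3, 43.2 and 34.1 CPM in 4OHT libraries and 47.5, 52.1 and 55.9 CPM in DMSO libraries. Its groups did not overlap (-0.42, SE 0.103, edgeR adjusted p = 0.124, and 0.061 with the block). B4galnt2 had 125, 134 and 132 CPM in 4OHT libraries and 133, 147 and 193 CPM in DMSO libraries (-0.28, adjusted p = 0.382). B4galnt1 had 196, 178 and 238 CPM in 4OHT libraries and 213, 217 and 334 CPM in DMSO libraries (-0.32, adjusted p = 0.497). In both genes DMSO replicate 3 was the highest library, and the groups overlapped. B4galnt3 had a log2 fold change of -0.10. Without DMSO replicate 3 the values were -0.08 for B4galnt1, -0.12 for B4galnt2 and -0.36 for B4galnt4, and B4galnt3 turned to 0.09. Of B4galnt1 exon bases 20.7% are shared with Slc26a10 on the opposite strand.

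The 2 genes for enzymes that make the H blood-group antigen, Fut2 and Fut1, both rose. Fut2, the main enzyme of that kind in mouse intestinal epithelium, rose to 36.4, 52.5 and 64.7 CPM in 4OHT libraries, against 8.12, 9.91 and 18.1 CPM in DMSO libraries. The lowest 4OHT library was well above the highest DMSO library, and the third replicate was highest in both groups. The difference was 4.27-fold (log2 fold change 2.10, SE 0.334, adjusted p = 0.0459 in edgeR), the largest among the tested members, and the block narrowed its error (2.13, SE 0.114, adjusted p = 0.00308). Within replicate numbers the 4OHT to DMSO ratios of Fut2 were 4.49, 5.3 and 3.58.

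Fut1 rose to 7.24, 8.77 and 8.01 CPM in 4OHT libraries, against 3.97, 4.57 and 4.32 CPM in DMSO libraries. The level was low but replicates agreed closely (1.87-fold, log2 fold change 0.90, SE 0.124, adjusted p = 0.0326 in edgeR). Both genes are on mouse chromosome 7 in GRCm38, with Fut1 (ENSMUSG00000008461) at chr7:45617289-45621059 on the plus strand and Fut2 (ENSMUSG00000055978) at chr7:45648591-45666394 on the minus strand. Their annotated ends are 27531 bases apart, and neither shares exon bases with another annotated gene.

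The make-up of fucosyltransferase RNA differed between the groups. Fut2 held 21.4%, 27.6% and 30.6% of the summed fucosyltransferase TPM in 4OHT libraries, against 6.62%, 7.25% and 10.8% in DMSO libraries. The TPM ratio of Fut2 to Fut1 was 2.58, 3.07 and 4.15 in 4OHT libraries, against only 1.05, 1.11 and 2.15 in DMSO libraries. Fut8, the core fucosyltransferase gene of N-glycans, held 57.6%, 51.4% and 51.9% in 4OHT libraries, against 70.2%, 70.7% and 71.3% in DMSO libraries. Fut8 itself was at 148 ± 9.79 CPM in 4OHT and 147 ± 25.3 CPM in DMSO (0.02, SE 0.123, adjusted p = 0.968). Fut4, a Lewis-type enzyme gene, had a log2 fold change of 0.17 and Fut11 one of 0.04. Fut7 and Fut10 had at most 8 counts in a library and were not tested.

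**Figure D3:**
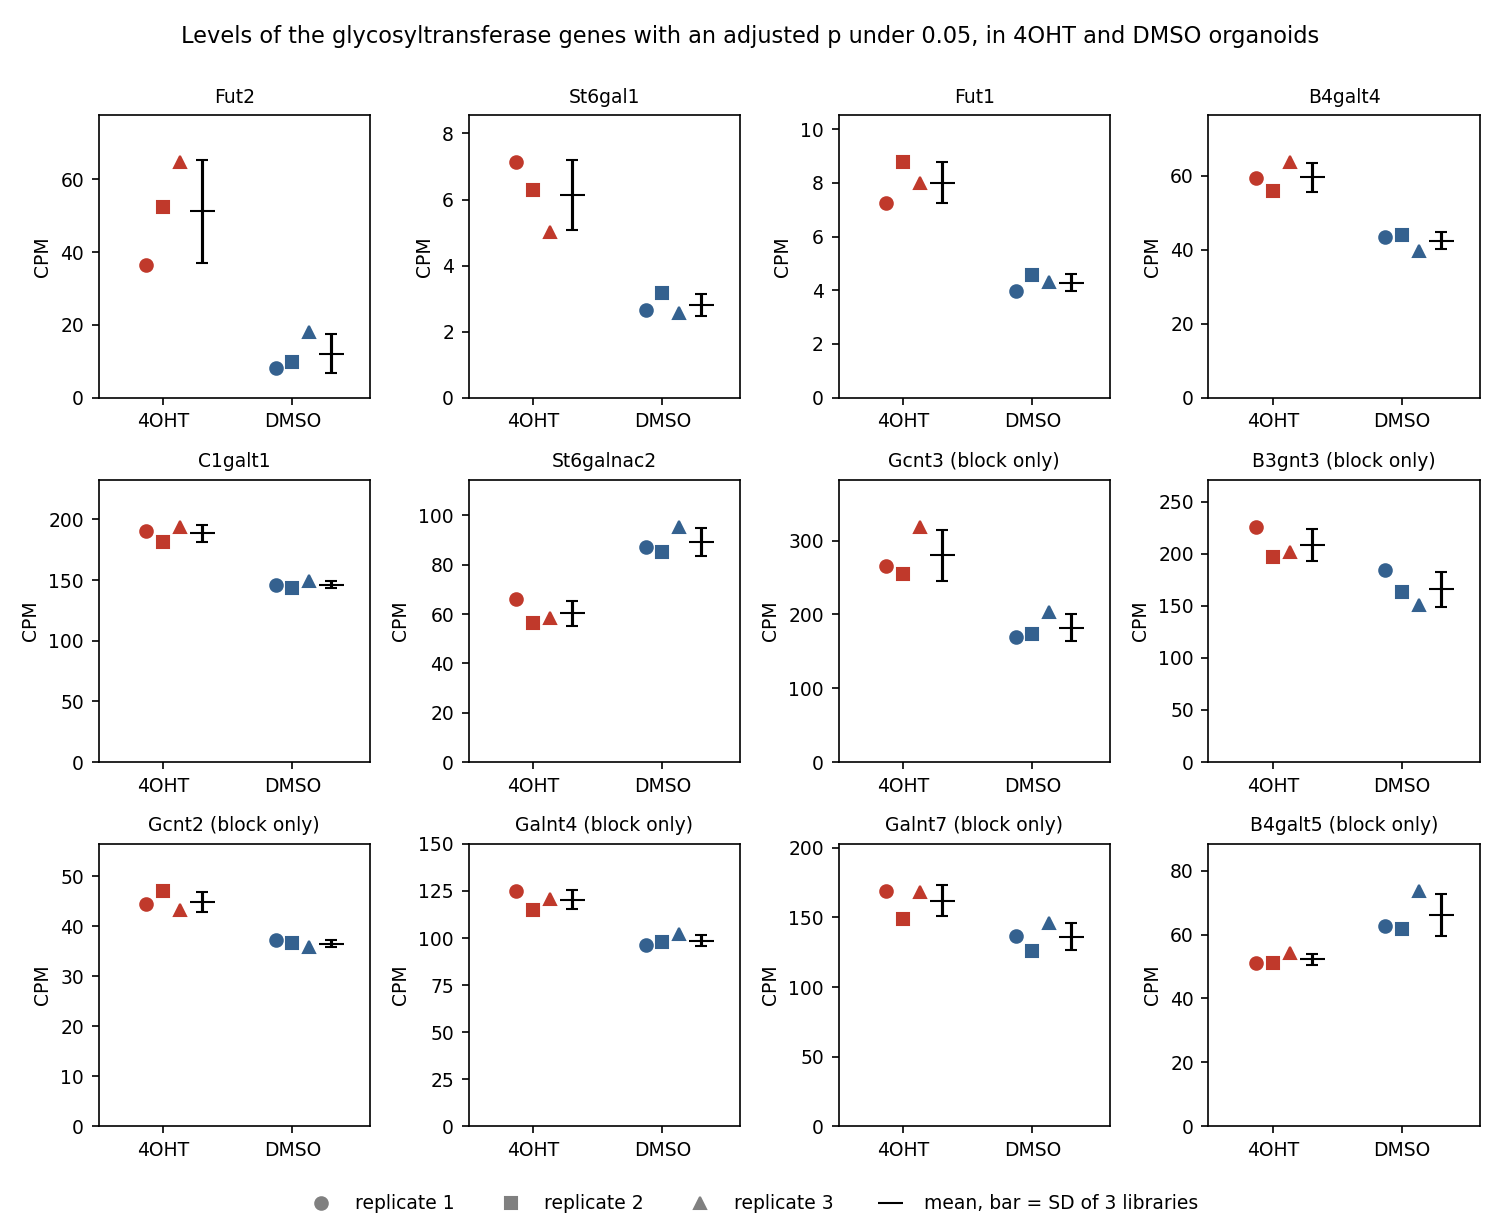
CPM in each library (points, shape = replicate) with mean and SD of 3 libraries for the 12 members with an adjusted p under 0.05, 6 of them only with the replicate block; 4OHT is left and DMSO right in each panel, and every y axis starts at 0. The groups do not overlap in any panel, and St6galnac2 and B4galt5 are lower in 4OHT libraries.

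Sialyltransferases changed in both directions. St6gal1, which puts sialic acid on the galactose ends of N-glycans, rose to 7.13, 6.29 and 5.01 CPM in 4OHT libraries, against 2.64, 3.18 and 2.57 CPM in DMSO libraries. The groups were well apart (2.19-fold, log2 fold change 1.13, SE 0.176, adjusted p = 0.0448 in edgeR). It lies at chr16:23224740-23360350 on the plus strand (ENSMUSG00000022885), and 4.07% of its exon bases are shared with an opposite-strand transcript. St6galnac2, which sialylates the GalNAc at the base of O-glycans, fell to 66.0, 56.6 and 58.4 CPM in 4OHT libraries, against 87.1, 85 and 95.5 CPM in DMSO libraries. All DMSO libraries were above all 4OHT libraries (1.48-fold lower, log2 fold change of -0.56 with SE 0.0789, adjusted p = 0.0335 in edgeR). St6galnac2 (ENSMUSG00000057286, chr11:116675303-116694868, minus strand) shares 8.58% of its exon bases with 1810032O08Rik on the opposite strand, and the strand setting of the counting is not stated. Another 6.615% are shared with a second annotated gene of the same name on the same strand.

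St3gal4, the highest sialyltransferase gene, did not pass and varied strongly between replicates. It had 185, 140 and 243 CPM in 4OHT libraries and 209, 199 and 451 CPM in DMSO libraries (-0.60, SE 0.349, adjusted p = 0.481, and 0.07 with the block). In each numbered pair the 4OHT library was lower, but the groups overlapped. Its log2 fold change was -0.11 without DMSO replicate 3 and -0.33 without replicate 3 of both groups. St3gal6, which shares 26.0% of its exon bases with Dcbld2 on the opposite strand, had 97.9, 95.1 and 117 CPM in 4OHT libraries and 97.6, 99.3 and 97.2 CPM in DMSO libraries (0.07, adjusted p = 0.732). St3gal2, near the detection limit, had 1.17, 1.29 and 0.604 CPM in 4OHT libraries and 0.584, 0.735 and 0.13 CPM in DMSO libraries (1.04, SE 0.531, adjusted p = 0.418). The other 4 tested genes had log2 fold changes between -0.19 (St3gal1) and 0.21 (St6galnac4), and the polysialyltransferase gene St8sia4 had 1 to 4 counts per library. Of the non-coding members, Galnt6os was at 0.324 and 0.289 CPM in 4OHT and DMSO libraries (adjusted p = 0.861), and 22.4% of its exon bases lie in Galnt6. St8sia3os had 2 to 5 counts per library.

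Several members that were high or low in replicate 3 were so in both groups. For each member, log2 CPM in replicate 3 was set against the average of the other libraries of its group. In the 4OHT group 5 members were higher and 3 lower by more than 0.5, and in the DMSO group 9 were higher and 4 lower, which is 15.7% and 25.5% of the members beside 9.88% and 17.4% of all tested genes. Higher in both were St3gal4 (0.59 in 4OHT and 1.15 in DMSO), Gcnt4 (0.65 in 4OHT and 1.05 in DMSO), B3galt5 (0.73 in 4OHT and 1.08 in DMSO), Fut2 (0.56 in 4OHT and 1.0 in DMSO) and Galnt5 (0.55 in 4OHT and 0.57 in DMSO). Lower in both were St3gal2 (-0.92 in 4OHT and -1.72 in DMSO, with 4 counts in DMSO replicate 3) and St6galnac6 (-0.76 in 4OHT and -0.88 in DMSO). These were 5 higher and 2 lower of 51 tested members, beside 363 higher and 281 lower of all 14544 tested genes. Replicates 1 and 2 were not set against the other libraries in this way. Gcnt1 differed in sign, at 0.20 in 4OHT and -1.09 in DMSO.

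**Figure D4:**
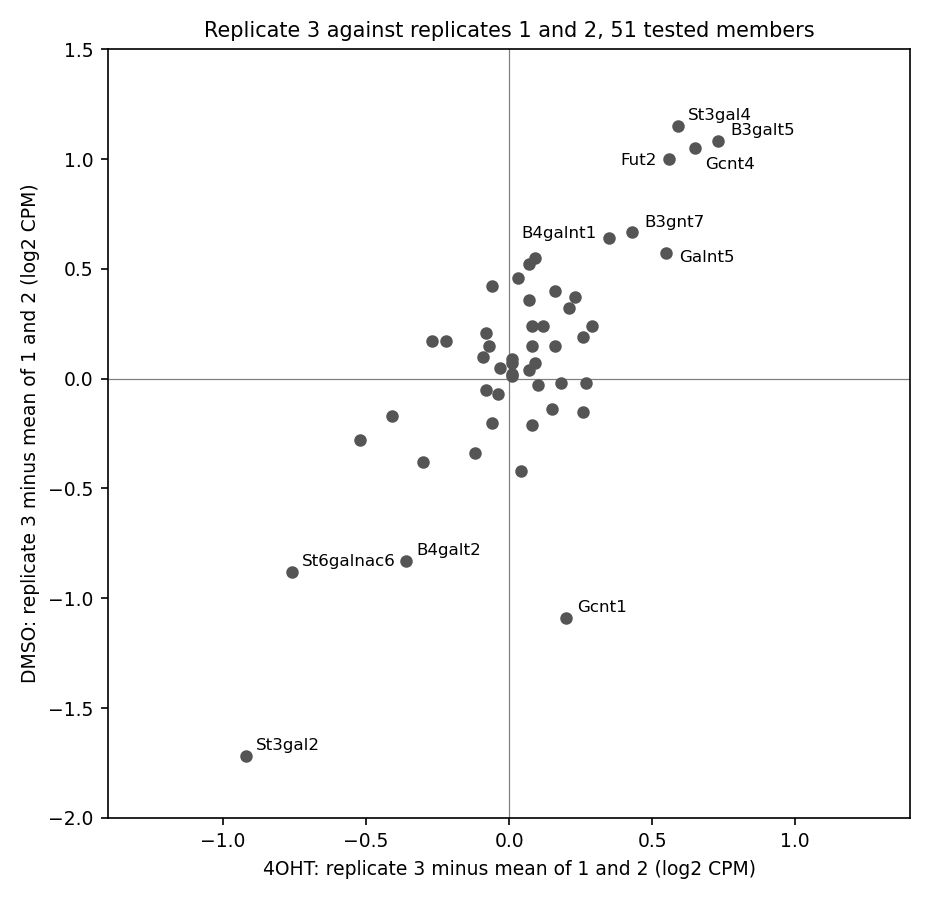
Replicate 3 minus the mean of replicates 1 and 2 (log2 CPM) in the 4OHT group (x axis) and the DMSO group (y axis), 1 point per tested member. Fut2, St3gal4, Gcnt4 and B3galt5 lie up in both groups and St3gal2 and St6galnac6 down in both, while Gcnt1 is low in DMSO replicate 3 alone.

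Promoter windows from RefSeq (GRCm38.p6, 250 bases before to 50 after a gene's start) were held for 40 of the 57 members, 56 windows in all. They were searched on both strands for an HNF4 motif (CAAAGTCCA), a nuclear-receptor direct repeat (AGGTCA repeated after 1 free base), an HNF1 motif (GTTAAT, 1 free base and ATTAAC) and a CDX motif (TTTATNG), none of which overlapped another in the windows shown. The HNF4 letters occurred in 1 of the 56 windows, that of B3gnt3, and in 0.475% of 32851 windows of all genes. The direct repeat and the HNF1 letters occurred in 0 member windows, and in 0.0396% and 0.00913% of all windows. The CDX letters occurred in 3 member windows (Fut8, Galnt11 and Gcnt2), which is 5.36%, beside 10.9% of all windows. None of the 4 was found in the windows of Fut1, C1galt1, B4galt4 or St6gal1 (3 windows), 4 of the genes that rose. Fut2, Gcnt3, St6galnac2 and Galnt4 were not among the 40 genes searched. The median GC content was 59.7% in member windows and 52.7% in all windows. Shown are the B3gnt3 window, for its HNF4 letters in capitals from base 97, and those of 3 genes that rose, each 5′ to 3′ on the gene's strand (B3gnt3 chr8:71701751-71702050 minus, Fut1 chr7:45617356-45617655 plus, C1galt1 chr6:7844974-7845273 plus, B4galt4 chr16:38742009-38742308 plus).
B3gnt3: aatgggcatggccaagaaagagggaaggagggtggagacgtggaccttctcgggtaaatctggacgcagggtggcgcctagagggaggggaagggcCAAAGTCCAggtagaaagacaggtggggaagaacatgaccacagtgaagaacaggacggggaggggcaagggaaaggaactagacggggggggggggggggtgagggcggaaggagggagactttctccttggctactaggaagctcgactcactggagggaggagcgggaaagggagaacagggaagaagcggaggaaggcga
Fut1: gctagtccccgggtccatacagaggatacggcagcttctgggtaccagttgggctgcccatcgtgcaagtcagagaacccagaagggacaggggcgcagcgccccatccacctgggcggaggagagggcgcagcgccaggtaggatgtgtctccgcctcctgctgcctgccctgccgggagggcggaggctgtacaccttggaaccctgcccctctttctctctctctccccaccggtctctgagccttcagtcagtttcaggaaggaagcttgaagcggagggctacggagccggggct
C1galt1: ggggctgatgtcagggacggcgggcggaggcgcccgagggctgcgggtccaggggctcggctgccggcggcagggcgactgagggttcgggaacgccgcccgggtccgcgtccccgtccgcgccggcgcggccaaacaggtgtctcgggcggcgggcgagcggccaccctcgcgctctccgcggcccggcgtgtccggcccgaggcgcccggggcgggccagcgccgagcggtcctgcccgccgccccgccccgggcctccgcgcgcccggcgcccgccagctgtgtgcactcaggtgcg
B4galt4: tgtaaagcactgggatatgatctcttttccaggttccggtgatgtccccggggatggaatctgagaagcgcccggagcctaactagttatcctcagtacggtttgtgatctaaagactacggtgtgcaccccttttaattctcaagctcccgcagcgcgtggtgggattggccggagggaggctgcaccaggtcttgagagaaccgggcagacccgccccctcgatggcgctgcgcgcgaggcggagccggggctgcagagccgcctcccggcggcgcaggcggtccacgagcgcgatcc

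Of 14 goblet markers 1 rose (Bcas1, log2 fold change 1.38, adjusted p = 0.0455), and with the block 9 rose and 1 fell, with summed levels of 3870 to 6480 CPM in 4OHT libraries and 2430 to 4500 CPM in DMSO libraries. Of 9 gastric surface and gland markers 4 rose (Tff1, Gkn1, Gkn2 and Psapl1) and 6 rose with the block, where 0.701% and 3.99% of all tested genes rose. The 9 summed to 337 to 519 CPM in 4OHT libraries and 136 to 284 CPM in DMSO libraries. Much of that was Anxa10, called in neither edgeR fit (259 CPM in 4OHT and 179 CPM in DMSO). Tff1 averaged 128 CPM in 4OHT and 9.81 CPM in DMSO, and Psapl1 20.9 and 5.32 CPM. Gkn1 (1.79 and 0.401 CPM) and Gkn2 (0.766 and 0.084 CPM) were near the detection limit. The defining gastric mucins Muc5ac and Muc6 were on this list of 11 but not among the 9 genes with values, so they could not be tested. Enterocyte markers had a median log2 fold change of -0.61, with 0 of 12 called in edgeR (4 lower at an unadjusted p under 0.05) and 3 lower with the block. The part of these cell types in the changes of Fut2, Gcnt3 and the other members was not tested. In bulk RNA fewer cells of a type and less RNA per cell cannot be told apart.

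Genes of related glycan pathways, those for substrate supply among them, showed 0 calls in edgeR without the block. Over 7 lists of pathway genes, 62 genes tested in all, 0 passed. At an unadjusted p under 0.05, 10 were higher and 5 lower, where 8.65% and 6.35% of all tested genes were. DESeq2, which covered 69 listed genes, called 3 higher and 1 lower, beside 2.57% and 1.41% of all genes. With the block 8 rose and 3 fell, where 3.99% and 3.0% of all tested genes rose and fell. Of 5 tested mucin core proteins, with the block Muc2, the gel-forming mucin of goblet cells, rose and Muc13, a membrane mucin, fell. Muc2 had 149, 130 and 214 CPM in 4OHT libraries, against 68.8, 44.0 and 159 CPM in DMSO libraries (adjusted p = 0.426, and 0.0422 with the block). Muc13 had 382, 334 and 455 CPM in 4OHT libraries, against 455, 452 and 661 CPM in DMSO libraries (adjusted p = 0.332, and 0.0284 with the block). Both genes had overlapping groups.

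Of the 10 genes for fucose supply and protein O-fucosylation 0 passed in either edgeR fit (1 lower at an unadjusted p under 0.05), with a median log2 fold change of -0.02 and summed levels of 1020 to 1110 CPM in 4OHT libraries and 990 to 1100 CPM in DMSO libraries. The smallest p of that list was that of Slc35c2, a fucose-related transporter gene of the Golgi (54.6 CPM in 4OHT and 61.8 CPM in DMSO, adjusted p = 0.328). Among 9 genes for sialic acid supply 1 rose with the block, Slc35a1, the CMP-sialic acid transporter gene (49.8 ± 2.98 CPM in 4OHT and 39.0 ± 2.9 CPM in DMSO, SD, n = 3 each, adjusted p = 0.0984, and 0.0402 with the block). Of 14 genes for hexosamine and galactose supply, Gfpt1 (0.26, block adjusted p = 0.0477), the first enzyme of the hexosamine pathway, and Uap1 (0.22, 0.0485), which makes UDP-GalNAc and UDP-GlcNAc, rose with the block.

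In N-glycan processing, 2 of 12 genes rose with the block, the bisecting enzyme gene Mgat3 (0.30, block adjusted p = 0.0268) and the mannosidase gene Man2a2 (0.34, 0.0291). Of 3 tested glycan sulfotransferases, with the block Chst4 rose, at 35.6, 29.0 and 41.6 CPM in 4OHT libraries, against 21.7, 22.4 and 25.8 CPM in DMSO libraries (0.60, adjusted p = 0.109, and 0.0214 with the block). Chst4 sulfates N-acetylglucosamine, and its groups did not overlap. Gal3st2, which sulfates galactose, fell with the block (-0.77, adjusted p = 0.398, and 0.0402 with the block). Among 9 related transferases outside the symbol rule, Galntl6, a GALNT-like gene, had 4.29, 5.28 and 6.65 CPM in 4OHT libraries, against 1.83, 1.96 and 2.7 CPM in DMSO libraries. Its groups were apart (1.33, SE 0.226, adjusted p = 0.0557, and 0.0101 with the block). B3glct, which adds glucose to O-linked fucose, was lower by -0.45 on the log2 scale (adjusted p = 0.0947, and 0.0446 with the block).

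Of the 57 members, 6 in the authors' deposited table had an adjusted DESeq p under 0.05 and 8 had an adjusted edgeR p under 0.05, beside 1.63% and 3.65% of all genes in it. All 6 of the DESeq calls in the authors' deposited table (Fut2, Gcnt3, St6galnac2, St6gal1, Fut1 and B4galt4) were among the 8 edgeR calls, which added C1galt1 and B4galnt4. For Fut2 the authors' deposited table gave a log2 fold change of 2.09 and adjusted p-values of 8.4e-05 (DESeq) and 1.1e-11 (edgeR).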

How the data were processed

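The authors deposited raw counts per gene for each library, with STAR 2.4.0f1, bcl2fastq 1.8.4 and GRCm38 named, per the submitters' processing notes; the counting program and its strand setting are not given in the sources used here. The deposited table also holds a normalised score per library, rounded by the authors and not used, and the authors' log2 fold changes and p-values. Genes in it have at least 10 counts in total. Libraries were made from poly(A) RNA with a kit that keeps strand, per the labels' protocols.

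Counts were tested in R 4.3.3 with edgeR 4.0.16 (filterByExpr, TMM scaling, quasi-likelihood F test, two-sided), fitted on all 14544 kept genes of 18448. Raw p-values were adjusted by Benjamini-Hochberg. CPM uses TMM-scaled library sizes. SE is that of the log2 fold change, computed as its absolute value divided by the square root of the F statistic. The test was tried on simulated data. DESeq2 1.42.0, 2 other scalings, no filter, the replicate block and left-out libraries were alternatives. TPM uses the union of exons in GENCODE mouse release 21.

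Replicate numbers 1 to 3 occur in both groups. Deviations from group means correlated at 0.30, 0.33 and 0.43 between libraries of the same number. Between libraries of different numbers the correlations ran from -0.37 to 0.07. The numbers were taken as pairs from these values, since the labels do not say what a number marks. Members and lists were chosen with earlier results of these data known. Named in full were members called with or without the block, the 12 highest by TPM, and those with groups apart and a log2 fold change of at least 0.5 in size; the lists' called genes or smallest p were named too.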

Additional observations from a re-analysis of the deposited data

How the results depend on the processing

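None of the 21 members described in full changed direction under any alternative; B4galnt3, described by its fold change alone, did without DMSO replicate 3 (0.09) and without replicate 3 of both groups (0.06). All 6 calls held with the replicate block, DESeq2, both other scalings, no filter and without replicate 3 of both groups. With the replicate block 1017 genes were called (580 higher), 12 members (10 higher, 2 lower) and 11 pathway genes. DESeq2 called 735 genes (474 higher), 11 members (8 higher, 3 lower) and 4 pathway genes. Without replicate 3 of both groups, with 2 libraries a group, 601 genes (379 higher), 10 members (8 higher, 2 lower) and 7 pathway genes were called. Library totals alone gave 1 pathway gene. Leaving out 1 library gave 4 to 340 genes (3 to 253 higher), 0 to 8 members (0 to 7 higher, 0 to 1 lower) and 0 to 3 pathway genes, with the upper values without DMSO replicate 3 and the cause not tested. The members' median log2 fold change then ran from 0.08 to 0.14. With the longest transcript as length, 11 of the 12 highest members remained, and Fut8 took the place of C1galt1. Members under about 1 CPM (among them St3gal2, B3galt5, B3gnt6, St6galnac4, Galnt6os and, in DMSO libraries, B4galt2) are limited by depth.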

Other observations

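Markers of other epithelial lineages, on lists chosen with earlier results known, had fewer calls than the goblet list with the block. Those lists were also shorter than the list of 14 goblet markers. With the block 3.99% of all tested genes rose and 3.0% fell. Of 10 Paneth cell markers Nupr1 rose and Lyz1 fell, and the same counts were found with the block. Of 10 stem cell markers Msi1 fell, and with the block Prom1 rose and Msi1 and Axin2 fell. Of 10 enteroendocrine markers 0 were called in edgeR (0 at an unadjusted p under 0.05), and Chga rose with the block (adjusted p = 0.0478). Of 6 tested tuft cell markers 0 were called in edgeR (2 higher at an unadjusted p under 0.05), and Avil rose with the block (adjusted p = 0.0435). Of 6 microfold cell markers, a cell type of the gut that carries fucosylated surface glycans, 0 were called in either edgeR fit (2 higher at an unadjusted p under 0.05). Their summed levels were 287 to 363 CPM in 4OHT libraries and 169 to 302 CPM in DMSO libraries, mostly from Anxa5, Marcksl1 and Tnfrsf11a. Spib, Tnfaip2 and Ccl20 averaged only 1.67, 2.99 and 4.16 CPM in 4OHT and 1.3, 1.53 and 6.1 CPM in DMSO. Gp2 and Sox8 of that list could not be tested. Of 2 tested fibroblast and 2 tested leukocyte markers 0 were called in either edgeR fit (1 leukocyte marker was higher at an unadjusted p under 0.05).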
